A study of Mus musculus with 2 samples.

Results

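Dental follicle cells with Grem1 and Moxd1 were examined at PN15.5 in the mandibular first molar and the tissue around it, by single-cell RNA sequencing. A cell was counted as a member when it carried at least 6 unique molecular identifiers (UMIs, each 1 captured RNA molecule) summed over Dio2, Grem1, Mmp11, Moxd1 and C1qtnf3 and when Col1a1 made up at least 2% of its UMIs. It also had to hold fewer than 5 Ibsp, fewer than 10 Bglap plus Bglap2 and fewer than 3 Mmp13 UMIs. A limit of 200 genes from below and 20% mitochondrial UMIs from above had kept 17780 of 19015 deposited cells, and 600 of these were members. The tissue came from C57BL/6J mice given clodronate liposomes (Lipo-Clo), which deplete phagocytic cells, by intraperitoneal injection at 40 μg/g every 3 days from PN3.5, 4 times in all, or from mice given vehicle liposomes (Lipo-PBS). Both groups share the C57BL/6J background and the PN15.5 harvest, and the labels give both the same batch number. Each condition was 1 library, the number of mice in it is not given in the sources used here, and the mice of the study were of both sexes. No test between conditions was possible, so the values below have no replicate check, and the 95% intervals cover counting error only, being exact binomial (Clopper-Pearson) ones where a share is given and Poisson ones for levels and ratios.

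The dental follicle is the sheath of mesenchyme that surrounds a forming tooth. Its cells give rise to the periodontal ligament, the cementum of the root and part of the alveolar bone, and before that they send the signals that recruit and restrain osteoclasts while the tooth erupts. Grem1 is a secreted antagonist of bone morphogenetic proteins (BMPs), Dio2 converts the thyroid prohormone T4 into the active T3, Mmp11 is a matrix metalloproteinase, C1qtnf3 is a secreted protein of the C1q/TNF family, and Moxd1 is a monooxygenase-like protein of the endoplasmic reticulum known from neural crest derivatives.

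The Lipo-Clo library held 31053404 UMIs in 9362 deposited cells and the Lipo-PBS library 30537834 UMIs in 9653. After filtering, 313 of 8886 Lipo-Clo cells were members (3.52%, interval 3.15 to 3.93) and 287 of 8894 Lipo-PBS cells (3.23%, interval 2.87 to 3.62), so the intervals of the 2 shares overlapped. The log2 ratio of the shares was 0.13, but 0.73 with Col1a1 required at 4% of UMIs or more, 0.49 with Dio2 left out of the sum and −0.22 with Moxd1 left out. The members carried 1278564 and 1046484 UMIs, with a median of 3929 and 3313 UMIs per cell. The libraries shared 30 cell barcodes, of which 1 belonged to a Lipo-PBS member and none was a member in both. Mitochondrial UMIs made up 0.247% of the Lipo-Clo members' UMIs and 1.70% of the Lipo-PBS members', and 0.368% and 1.74% over all kept cells. The part of this difference between libraries in the ratios below was not tested.

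The level of the summed genes chose these cells and is given as a description. Dio2 stood at 867 CPM (UMIs of the gene per 1000000 UMIs of the set of cells) in Lipo-Clo members and 1980 CPM in Lipo-PBS members, with a median of 0 and 4 and a highest cell of 44 and 64 UMIs. Moxd1 stood at 842 CPM in the Lipo-Clo and 288 CPM in the Lipo-PBS members, with a median of 3 and 0 and a highest cell of 19 and 15 UMIs. Dio2 was thus the more abundant of the pair in the Lipo-PBS members, while in the Lipo-Clo members their intervals overlapped (816 to 919 CPM for Dio2 and 792 to 893 CPM for Moxd1). Grem1 was at 564 and 591 CPM in Lipo-Clo and Lipo-PBS members, Mmp11 at 372 and 799 CPM, and C1qtnf3 at 784 and 565 CPM. The members made up 3.52% and 3.23% of the kept cells, and 58.1% and 39.5% of all Dio2 UMIs, 59.0% and 39.3% of all Grem1 UMIs and 33.5% and 16.2% of all Moxd1 UMIs of their libraries lay in them. A member showed a median of 3 of the 5 genes in each library, 123 Lipo-Clo and 105 Lipo-PBS members showed at least 4, and 12 and 31 were members through a single gene.

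The count at which a cell became a member cut through a continuous range. In the Lipo-Clo library 54 cells lay at a sum of 5, just outside, and 42 at a sum of 6, just inside. In the Lipo-PBS library the numbers were 38 and 49. Of 7 genes that the rule did not use, Bmp3, Spon1 and Col18a1 were higher just inside than just outside in both libraries, and the other 4 were lower inside in at least 1 of them. Bmp3 stood at 572 CPM just outside and 939 just inside in Lipo-Clo, and at 206 and 365 CPM in Lipo-PBS. Spon1 stood at 299 and 470 CPM in Lipo-Clo and at 419 and 428 CPM in Lipo-PBS. Il1rl1 went from 89.2 to 75.8 CPM in Lipo-Clo and from 83.8 to 251 CPM in Lipo-PBS, and Tnfrsf21 from 89.2 to 83.3 and from 83.8 to 79.8 CPM. Apcdd1 went from 315 to 508 CPM in Lipo-Clo and from 236 to 131 CPM in Lipo-PBS, and Fbln7 from 226 to 295 and from 38.1 to 34.2 CPM. The cells just outside held from 5 to 109 UMIs of each of these genes.

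Other sets of collagen-rich cells served as a comparison. The other Col1a1-rich cells met every limit but had fewer than 6 UMIs over the 5 genes (1573 Lipo-Clo and 1497 Lipo-PBS cells). Mmp13-positive cells had at least 3 UMIs of Mmp13, a collagenase of follicle and bone (250 and 425 cells), and the bone-side cells were past the limit on Ibsp, a bone and cementum matrix protein, or on the osteocalcin genes Bglap and Bglap2 (879 and 1004 cells). Moxd1 was not restricted to the members, since the bone-side cells of the Lipo-Clo and Lipo-PBS libraries held it at 243 and 177 CPM. Dio2 was at 85 CPM in the Lipo-Clo and 195 CPM in the Lipo-PBS bone-side cells, and at 29 and 296 CPM in the Mmp13-positive cells. Dio2 was thus lower in Lipo-Clo than in Lipo-PBS in both of these sets as well as in the members, and so was its level in neutrophil-rich and endothelial-rich cells, given below. Moxd1 was higher in Lipo-Clo in the bone-side cells and in the other Col1a1-rich cells (125 and 42.4 CPM), and also in the Mmp13-positive cells, at 46.6 and 31.2 CPM (log2 ratio 0.58, interval 0.04 to 1.11).

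**Figure D1:**
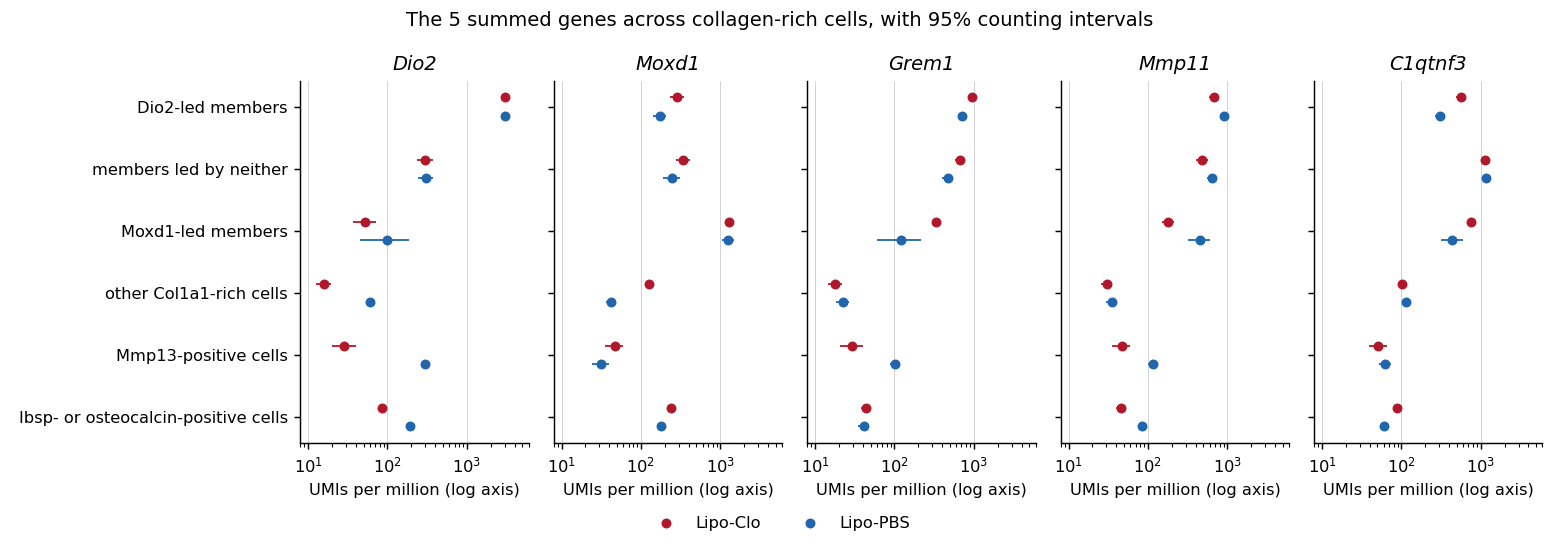
Levels of the 5 summed genes, in CPM on a log axis, in 3 ranges of members and 3 sets of other collagen-rich cells, in red for Lipo-Clo and blue for Lipo-PBS. Points are summed UMIs of 1 library and bars the 95% Poisson intervals. The upper 3 rows are high because these genes chose the cells. Among the lower 3 rows, the Dio2 level of the other Col1a1-rich cells was 15.9 and 60.3 CPM. In Lipo-PBS this lies within the range seen in cells of other lineages.

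RNA released from broken cells was gauged in cells of other lineages with little Col1a1. Among cells rich in neutrophil S100a8 and S100a9 transcripts, Dio2 was seen in 13 of 694 Lipo-Clo cells (1.87%, interval 1.00 to 3.18) and in 36 of 323 Lipo-PBS cells (11.1%, interval 7.93 to 15.1). Their median depths were 3104 and 2665 UMIs, close to those of the members. Dio2 was seen in 44.7% of the Lipo-Clo and 75.6% of the Lipo-PBS members, shares that the rule itself raised. The level of Dio2 was 7.48 CPM in the neutrophil-rich cells of Lipo-Clo and 107 CPM in those of Lipo-PBS. Endothelial-rich cells held 4 UMIs of Dio2 in 234 Lipo-Clo cells and 73 in 332 Lipo-PBS cells (61.4 CPM), and B cell-rich cells 3 in 248 and 4 in 121. Moxd1 lay between 8.93 and 11.4 CPM in these cells in Lipo-Clo and between 9.40 and 19.7 CPM in Lipo-PBS. The Dio2 level of the other Col1a1-rich cells was above all of these in Lipo-Clo, at 15.9 CPM. In Lipo-PBS, at 60.3 CPM, it lay below the neutrophil-rich, near the endothelial-rich and above the B cell-rich cells, so no difference between libraries is read from it. The Lipo-PBS Dio2 UMIs were gathered in few cells, 120 in 36 neutrophil-rich cells and 73 in 27 endothelial-rich cells. For Moxd1, 22 UMIs lay in 19 neutrophil-rich cells. The parts of released RNA and of mixed droplets in these levels were not tested.

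The marker lists were checked for the name dental follicle. Of 14 follicle markers, 7 were seen in 10% or more of the cells of a set, which is called measured below, and 4 of these were at least 1.5-fold higher in the members than in the other Col1a1-rich cells in both libraries, with none lower. Over all 5548 genes measured to that depth, 403 were higher by this limit (7.26%) and 193 lower (3.48%). Pth1r, another of the 7, was lower in members by the limit in Lipo-Clo alone, at 37.5 against 61.5 CPM (log2 ratio −0.71, interval −1.18 to −0.27). In Lipo-PBS it stood at 30.6 against 40.5 CPM (−0.40, interval −0.99 to 0.14). The 4 higher markers were Bmp3 (a BMP family member that restrains bone formation), Pthlh (parathyroid hormone-related protein), Spon1 (a secreted matrix protein) and Igfbp5 (a carrier of insulin-like growth factors). Of these 4, Pthlh was higher in the bone-side cells than in the members, at 344 and 241 CPM in Lipo-Clo and Lipo-PBS against 137 and 218 CPM. Bmp3 was at 366 and 277 CPM in the bone-side cells against 795 and 302 CPM in the members, so in Lipo-PBS these were close. The median log2 ratio of the 7 was 1.00 for the Lipo-Clo and 1.22 for the Lipo-PBS library, beside 0.00 and 0.06 over all genes. The list summed to 6008 CPM in the Lipo-Clo and 4312 CPM in the Lipo-PBS members, against 2893 and 1868 CPM in the other cells, and Igfbp5 made up most of it at 4097 and 2542 CPM in the members. Fxyd7 and Tbx18 were at 0 in Lipo-Clo members. Gli1, the hedgehog effector that marks stem cells of the root, had 1 and 3 UMIs in all members, and the retinoic acid enzyme Aldh1a2 had 4 and 7.

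Markers of neighbouring tissues gave a mixed picture. Of 12 periodontal ligament markers measured, 3 were higher in the members in both libraries and 4 lower. The list summed to 11163 and 10086 CPM in Lipo-Clo and Lipo-PBS members against 6119 and 7404 CPM in the other cells. Periostin (Postn) was at 7174 and 5322 CPM in Lipo-Clo and Lipo-PBS members against 2236 and 3000 CPM in the other cells, but the Mmp13-positive cells of Lipo-PBS held it at 5641 CPM. Tnmd, a tendon and ligament membrane protein, was at 928 and 673 CPM against 393 and 288 CPM. Itgbl1 was at 821 and 914 CPM against 221 and 272 CPM. Thbs4, Aspn, Pappa2 and Crispld2, of the same list, were lower in the members. Dental papilla and pulp markers summed to 588 and 799 CPM in members against 823 and 824 CPM in other cells. Adventitial fibroblast markers were lower, with 6 of 9 measured past the limit and none higher, and a summed level of 432 and 1426 CPM in members against 1183 and 2012 CPM in other cells. In Lipo-PBS this sum was spread unevenly over the members, as given below. Mepe and Sost, markers of osteocytes, were at 0 in the members of both libraries, and osteoblast markers outside the rule summed to 13 and 18 CPM.

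Markers of other lineages were present in the members too, many of them concentrated in a few cells. Erythroid markers summed to 14252 CPM in the Lipo-Clo and 27200 CPM in the Lipo-PBS members, with all 9 detected and Hbb-bs most abundant at 8763 and 17626 CPM. The 10 richest members held 88.6% and 52.6% of the haemoglobin UMIs. Neutrophil markers summed to 2619 and 2718 CPM, with S100a9 most abundant at 1715 and 1228 CPM, and 81.7% and 96.8% of their UMIs lay in 10 members. At least 3 neutrophil UMIs were carried by 106 Lipo-Clo members (33.9%) but by 10 Lipo-PBS members (3.48%), and by 25.4% and 6.35% of the other Col1a1-rich cells. Macrophage markers summed to 84 CPM in each library, with Lyz2 most abundant at 24.2 and 52.6 CPM and Mrc1 at 0 in Lipo-PBS. Osteoclast markers summed to 549 and 611 CPM, nearly all of it Ctsk (515 and 587 CPM), with Dcstamp and Calcr at 0 in both libraries. Unlike the neutrophil markers, they were spread over many members. At least 3 of their UMIs were carried by 36.7% and 36.9% of the members, against 12.8% and 17.6% of the other Col1a1-rich cells. Ctsk stood at 291 and 372 CPM in those other cells, so it was higher in the members of both libraries (log2 ratio 0.83 and 0.66). Endothelial markers summed to 71 and 118 CPM, B cell markers to 250 and 365 CPM (led by Ebf1, at 113 and 251 CPM) and T and NK cell markers to 15 and 10 CPM. Epithelial markers summed to 999 and 841 CPM, led by the ameloblast gene Odam at 506 and 407 CPM, and 78.1% and 62.6% of them lay in 10 members. Glial markers summed to 71 and 551 CPM, led by Pmp22, with Cdh19 and Ngfr at 0 in Lipo-Clo and Foxd3 in Lipo-PBS. Perivascular markers summed to 623 and 766 CPM, led by Tagln at 302 and 289 CPM. Odontoblast markers summed to 313 and 268 CPM, led by Gm17660, with 64.2% and 59.6% of them in 10 members.

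Beyond the genes that chose them, the members stood furthest above other Col1a1-rich cells in Il1rl1, Fbln7 and Tnfrsf21 among genes seen in 25% or more of the members of each library. These contrasts compare cells picked on related genes, and they are a description without a test. Il1rl1, the receptor for interleukin 33, was at 312 CPM in Lipo-Clo members against 16.1 CPM in other cells, and at 658 against 24.7 CPM in Lipo-PBS. The log2 ratios were 4.28 (interval 3.94 to 4.63) and 4.73 (interval 4.45 to 5.03). Il1rl1 also stood at 29.5 CPM in neutrophil-rich and 25.3 CPM in endothelial-rich Lipo-PBS cells, and at 0 in B cell-rich ones. The 24.7 CPM is thus not above such background, and the size of the 4.73 is uncertain. Fbln7, a fibulin of tooth and cartilage matrix, was at 360 against 43.6 CPM in Lipo-Clo and at 176 against 16.8 CPM in Lipo-PBS. The TNF receptor family member Tnfrsf21 was at 247 against 31.6 CPM and at 359 against 34.6 CPM. Each of these genes was also lower in the Mmp13-positive and in the bone-side cells than in the members: Il1rl1 stood at 31.0 and 91.2 CPM in the Mmp13-positive cells and at 19.5 and 59.8 CPM in the bone-side cells of Lipo-Clo and Lipo-PBS.

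Inhibitors and ligands of signalling pathways were among the 15 highest. Apcdd1, a membrane-bound inhibitor of Wnt signalling, was at 560 and 413 CPM in Lipo-Clo and Lipo-PBS members against 97.6 and 72.1 CPM in the other cells. Wnt5a, a Wnt ligand that acts mainly without β-catenin, was at 874 and 703 CPM against 230 and 202 CPM. Bmp3 was at 795 and 302 CPM against 226 and 83.9 CPM, with the bone-side cells between. Its log2 ratio was nearly the same in the 2 libraries, at 1.82 and 1.85, although the levels themselves were not. Spon1 (2.19 and 2.43), the endostatin precursor Col18a1 (2.57 and 2.48), the integrin subunit Itga8 (2.35 and 2.71), Srpx2 (2.46 and 2.14), the anticoagulant protein S gene Pros1 (2.15 and 2.12), Chodl (2.74 and 2.11), the metalloproteinase Adam12 (2.07 and 2.03), the thrombin receptor F2r (2.03 and 1.92) and the cadherin Cdh13 (2.71 and 1.87) completed the 15, the values being log2 ratios in Lipo-Clo and Lipo-PBS.

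Alpl and Mgp were among the genes furthest below the other Col1a1-rich cells. Alpl, the tissue-nonspecific alkaline phosphatase that supplies phosphate to mineral, was at 146 and 98.4 CPM in Lipo-Clo and Lipo-PBS members against 383 and 273 CPM in the other cells. Mgp, the matrix Gla protein that keeps soft tissue from mineralizing, was at 58.7 and 339 CPM against 319 and 838 CPM. Ptn (log2 ratio −1.98 and −1.37), Mef2c (−1.46 and −1.31), Sgcd (−1.88 and −1.74), Pde7b (−1.75 and −1.56), Tmtc2 (−1.33 and −1.27), Gsn (−1.33 and −1.22) and Tenm3 (−1.71 and −1.14) were lower too. Of 9 early bone and cementum genes measured, 4 were lower in the members and none higher, with Sp7, an osteoblast transcription factor, at 8.60 and 12.4 CPM against 69.4 and 44.1 CPM. Runx2, which acts before Sp7, was within the limit in both libraries, at 487 and 576 CPM in members against 573 and 519 CPM.

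**Figure D2:**
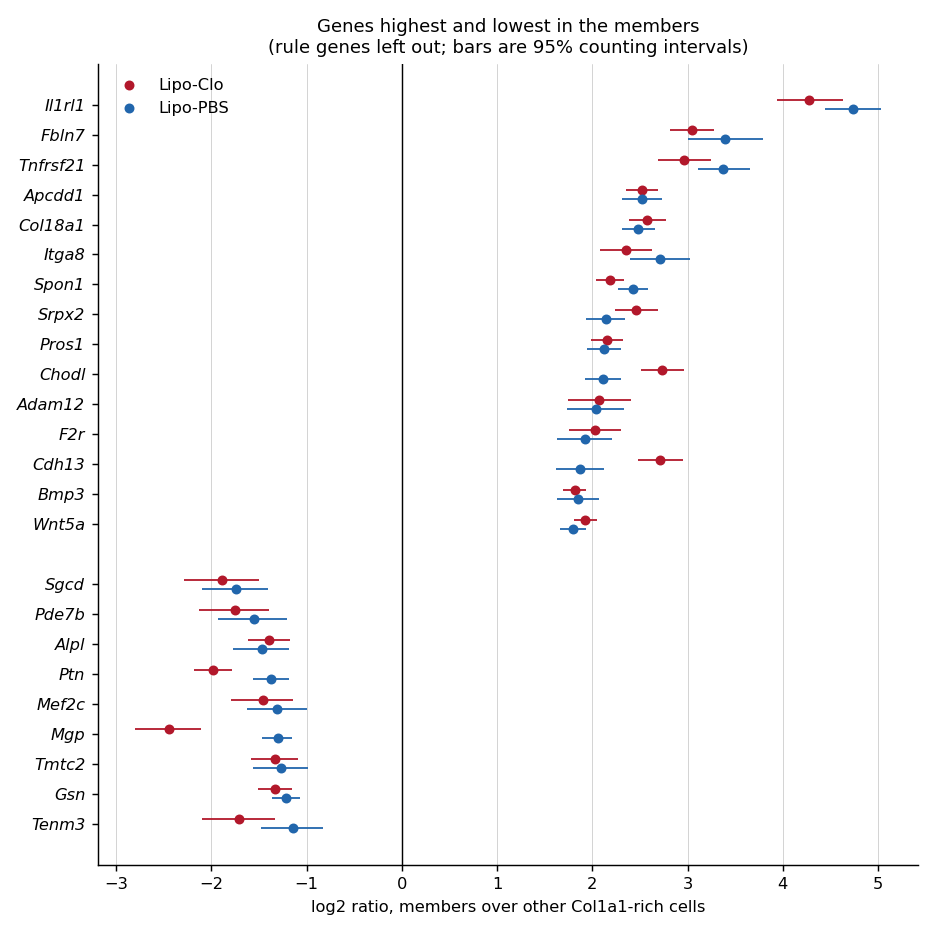
The log2 ratio of members over other Col1a1-rich cells for the genes furthest above and below 0, in red for Lipo-Clo and blue for Lipo-PBS, with 95% counting intervals. Il1rl1 lies furthest to the right at 4.28 and 4.73, and Mgp shows the widest gap between libraries among the lower genes, at −2.44 and −1.30.

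Signalling groups were then read in the members against the other Col1a1-rich cells, beside the 7.26% of all genes that were higher and the 3.48% that were lower. Retinoic acid genes showed 5 of 7 measured genes higher and none lower, and their median log2 ratio was 1.20 in the Lipo-Clo and 1.48 in the Lipo-PBS members. They were the binding proteins Crabp1 (845 and 683 CPM in members, 405 and 292 CPM in other cells) and Crabp2, the degrading enzyme Cyp26b1 (212 and 178 CPM against 74.8 and 57.5 CPM), Rdh10, which makes retinal, and Dhrs3, which turns it back. Among eruption signals 3 of 7 were higher and none lower. Pthlh was at 137 and 218 CPM against 48.1 and 38.3 CPM (and higher still in the bone-side cells), the membrane protease Mmp14 at 859 and 1180 CPM against 539 and 568 CPM, and the interleukin 1 receptor Il1r1 at 50.1 and 73.6 CPM against 24.7 and 34.0 CPM. The osteoclast factors Csf1 (22 and 13 UMIs in all members), Tnfsf11, which encodes RANKL (2 and 14 UMIs), and its decoy Tnfrsf11b (16 and 25 UMIs) were too sparse to compare.

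BMP genes lay in both directions. Of 6 ligands measured, Bmp3 and Bmp7 were higher and Gdf10 lower, and Bmp7 was at 53.2 and 57.3 CPM in Lipo-Clo and Lipo-PBS members against 18.3 and 20.4 CPM. Of 8 antagonists besides Grem1, Nbl1 (1155 and 1042 CPM against 489 and 449 CPM) and Twsg1 were higher and Bambi and Sostdc1 lower. Of 12 receptors and targets none was higher and Id1 and Id2, transcriptional targets of BMP signalling, were lower. Id1 was at 31.3 and 22.0 CPM in members against 82.9 and 72.7 CPM in other cells.

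Of 20 Wnt components measured, 5 were higher and 1 was lower. Besides Wnt5a these were Rspo1, an agonist (53.2 and 114 CPM against 18.1 and 25.4 CPM), Dkk3, Nkd2 and Kremen1, and the lower gene was Notum. Of 8 genes of thyroid hormone action other than Dio2, the receptor Thrb was among the 2 that were higher, and the coactivator Ncoa1 was lower. Thrb was at 59.4 and 120 CPM against 21.7 and 41.7 CPM. Klf9, a known target of the hormone, was at 203 and 274 CPM in members and 197 and 218 CPM in other cells, within the limit. Hedgehog genes showed 2 of 5 higher, Gli3 and the co-receptor Boc, while Ptch1, a direct target, had 18 and 14 UMIs in all members.

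Matrix genes followed the same uneven pattern. Of 8 fibrillar collagens besides Col1a1, Col5a3 and Col24a1 were higher and none was lower, and Col1a2 was at 21383 and 18929 CPM in members against 17525 and 16885 CPM. Of 13 other collagens 6 were higher and 3 lower. Col12a1, a collagen on the surface of fibrils, was at 3605 and 6505 CPM against 1500 and 2133 CPM, and Col6a5 at 93.1 and 47.8 CPM against 9.16 and 10.1 CPM. Col14a1, Col15a1 and Col16a1 were the lower ones. Of 25 matrix proteases and inhibitors 10 were higher and 2 lower, among them the secreted protease Htra1 (1430 and 1410 CPM against 431 and 448 CPM), the protease inhibitor Serpine2 (392 and 1205 CPM against 174 and 225 CPM) and Adamts4, an aggrecan-cleaving enzyme. The growth factor group had 5 higher and 3 lower of 16, with Pdgfra at 311 and 457 CPM against 139 and 201 CPM and Pdgfrb at 190 and 199 CPM against 86.2 and 90.4 CPM. Of 26 dental and skeletal transcription factors, only Twist1 was higher, and 5 were lower. Of 77 nuclear-coded oxidative phosphorylation genes none passed the limit either way.

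The members were then divided by which of Dio2 and Moxd1 had more UMIs in a cell. A member was called Dio2-led when it held at least 2 Dio2 UMIs and at least 2 times as many Dio2 as Moxd1 UMIs, Moxd1-led by the reverse, and led by neither otherwise. These are ranges of a measure the rule also used, not cell types, and 28 Lipo-Clo and 25 Lipo-PBS members had a ratio between 1.5 and 3 times either way. Both genes were seen in 97 of 313 Lipo-Clo members (31.0%) and 91 of 287 Lipo-PBS members (31.7%), and neither gene in 33 and 49. Dio2 was seen in 44.7% and 75.6% of the Lipo-Clo and Lipo-PBS members, and Moxd1 in 75.7% and 39.0%. Whether the pair met in a cell more or less often than these shares would give was not tested.

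In the Lipo-Clo library 91 members were Dio2-led (29.1%, interval 24.1 to 34.4), 151 were Moxd1-led (48.2%) and 71 neither. In the Lipo-PBS library 188 were Dio2-led (65.5%, interval 59.7 to 71.0), 23 were Moxd1-led (8.01%) and 76 neither. Of the 1076 Moxd1 UMIs of the Lipo-Clo members 893 lay in Moxd1-led cells, whereas of the 301 in Lipo-PBS members 115 lay in Moxd1-led and 113 in Dio2-led cells. The intervals of the Dio2-led shares did not overlap. The share of Dio2-led cells stayed lower in Lipo-Clo in each of the 15 other settings tried, with log2 ratios from −1.36 to −0.81 around a main value of −1.17. Chosen by the 3 genes Grem1, Mmp11 and C1qtnf3 alone, so without Dio2 or Moxd1, the members were 27.4% Dio2-led in Lipo-Clo and 57.7% in Lipo-PBS. All these settings recut the same 2 libraries and are no independent check. Over all kept cells, Dio2 stood at 64.0 and 184 CPM in Lipo-Clo and Lipo-PBS, and Moxd1 at 108 and 65.0 CPM. The libraries thus differed in this direction before any member was chosen. With 1 library of each kind, a difference between treatments and a difference between 2 dissections cannot be told apart.

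**Figure D3:**
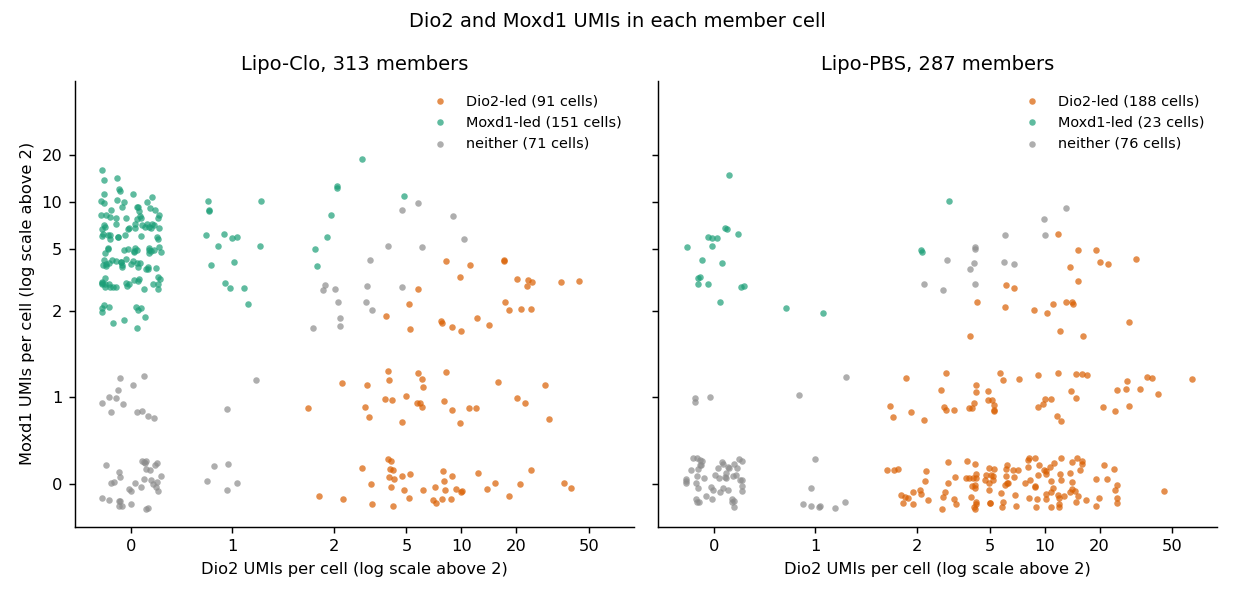
Dio2 UMIs (horizontal) and Moxd1 UMIs (vertical) in each member, with small random offsets so that cells at the same count can be seen, on axes that are linear to 2 and logarithmic above. The 151 Moxd1-led cells of Lipo-Clo fill the upper left, while the 188 Dio2-led cells of Lipo-PBS spread along the lower right.

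The Dio2-led and Moxd1-led cells differed in many genes that the rule did not use. Among 5066 genes seen in 10% or more of the cells of a range and with at least 20 UMIs over both ranges in each library, 299 were at least 1.5-fold higher in Dio2-led cells in both libraries (5.9%) and 179 were lower (3.53%). With the genes of the rule left out, 296 of 5059 were higher and 179 lower. Only 23 Lipo-PBS cells were Moxd1-led, with 91532 UMIs between them, so the Lipo-PBS ratios are the less certain. Stc1, stanniocalcin, a secreted regulator of calcium and phosphate, had 103 UMIs in Dio2-led and none in Moxd1-led Lipo-Clo cells, where the interval of the log2 ratio began at 5.83. In Lipo-PBS the counts were 192 and 2 (log2 ratio 3.74, interval 1.87 to 6.80). Il1rl1 was at 831 CPM in Dio2-led and 80.2 CPM in Moxd1-led Lipo-Clo cells, and at 916 and 43.7 CPM in Lipo-PBS. Of the 15 genes that stood furthest above other Col1a1-rich cells, 7 were past the limit towards the Dio2-led cells in both libraries: Il1rl1, Chodl, Tnfrsf21 (log2 ratio 1.37 and 1.74), Col18a1 (0.96 and 2.37), Adam12 (1.28 and 3.20), Apcdd1 (0.76 and 0.93) and Cdh13 (0.73 and 1.01). Bmp3 alone was past it towards the Moxd1-led cells.

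Chchd10, a mitochondrial protein, was at 357 and 402 CPM in the Dio2-led cells of Lipo-Clo and Lipo-PBS against 20.4 and 65.6 CPM in the Moxd1-led cells. The water channel Aqp1 was at 308 and 489 CPM against 35.0 and 120.2 CPM, and the stress-induced gene Gadd45a at 287 and 219 CPM against 49.6 and 76.5 CPM. The cAMP phosphodiesterase Pde4d was at 281 and 609 CPM against 93.4 and 109 CPM. Chodl, Pitpnc1, Tmtc1 and the mannosidase Man1a were the others of the 10. In Lipo-Clo the members led by neither held Chodl at 595 CPM, beside 553 CPM in the Dio2-led and 121 CPM in the Moxd1-led cells.

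In the other direction Bmp3 had the most UMIs. It was at 1055 CPM in the Moxd1-led and 438 CPM in the Dio2-led Lipo-Clo cells, and at 1049 and 215 CPM in Lipo-PBS, so the Moxd1-led cells of both libraries held nearly the same level. Ephb1, an ephrin receptor, was at 199.8 against 51.4 CPM in Lipo-Clo and at 131 against 12.2 CPM in Lipo-PBS. Islr, a surface protein of mesenchymal cells, was at 140.0 against 45.3 CPM and at 120.2 against 36.5 CPM. Col8a1 (log2 ratio of Dio2-led over Moxd1-led −1.62 and −2.43), Gm10638 (−1.60 and −2.05), Srpx (−1.99 and −1.44), Rasl11a (−1.35 and −1.60), the metalloproteinase inhibitor Timp3 (−1.24 and −1.36), Setbp1 (−1.24 and −1.56) and the neurotrophin receptor Ntrk3 (−1.21 and −1.50) completed this group, each value being for Lipo-Clo and then Lipo-PBS.

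**Figure D4:**
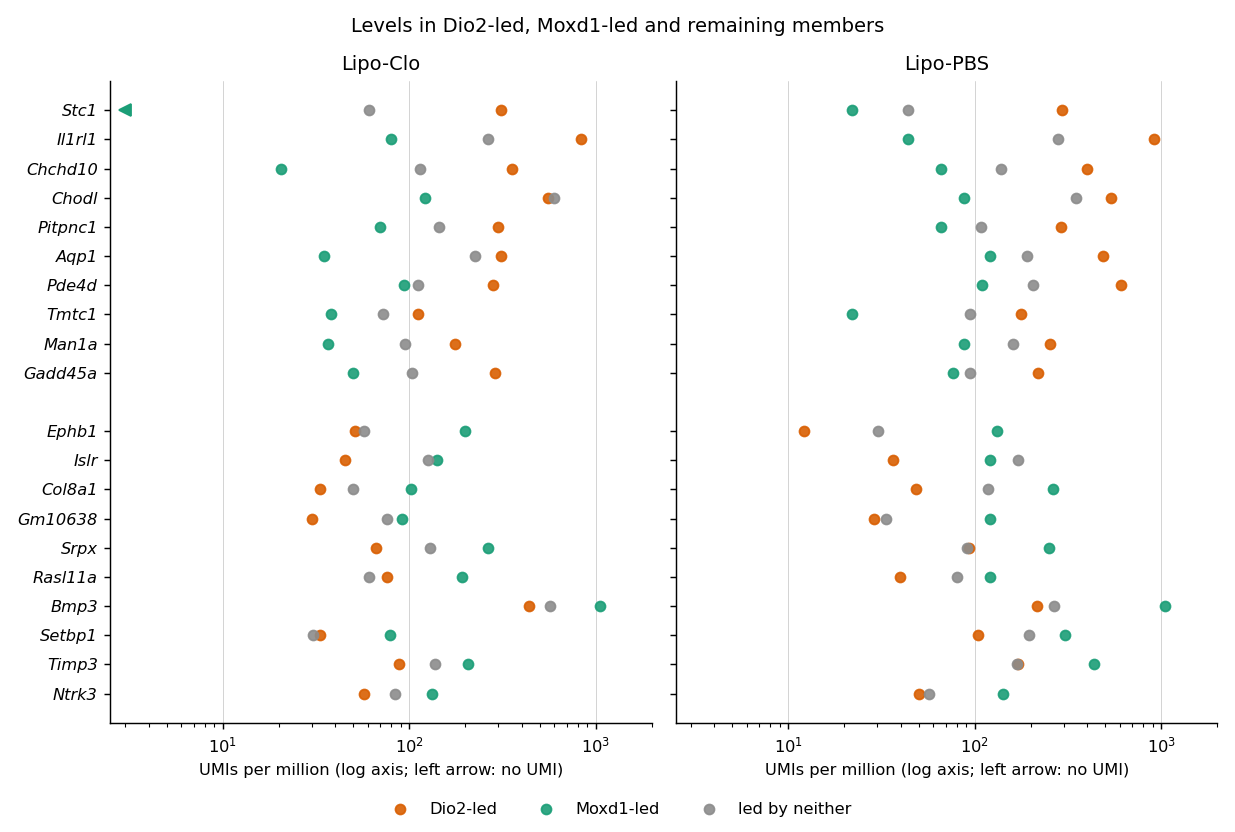
Levels of the 10 genes furthest to each side between Dio2-led (orange) and Moxd1-led (green) members, with the members led by neither in grey, in CPM on a log axis, for each library. Points are sums over the cells of a range; the left arrow marks Stc1, with no UMI in Moxd1-led Lipo-Clo cells, and orange lies right of green in the upper 10 genes and left of it in the lower 10.

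The other genes of the rule followed these ranges as well, and are given as a description. Grem1 was at 949 and 711 CPM in the Dio2-led cells of Lipo-Clo and Lipo-PBS and at 337 and 120.2 CPM in the Moxd1-led cells. Mmp11 was at 680.0 and 921 CPM in the Dio2-led and 179 and 448 CPM in the Moxd1-led cells. C1qtnf3 was highest in the members led by neither, at 1122 and 1164 CPM, against 559 and 311 CPM in the Dio2-led and 763 and 437 CPM in the Moxd1-led cells. Wnt5a was within the limit, at 737 and 754 CPM in the Dio2-led and 928 and 819 CPM in the Moxd1-led cells. Spon1 was at 759 and 846 CPM and at 518 and 459 CPM in the same order, past the limit in Lipo-PBS alone.

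Among the gene groups, the dental follicle list leaned to the Moxd1-led cells, with 3 of 7 measured genes lower in Dio2-led cells in both libraries and none higher (Bmp3, Igfbp5 and Sfrp4, beside 3.53% of all genes). Its median log2 ratio of Dio2-led over Moxd1-led cells was −0.51 for the Lipo-Clo and −0.26 for the Lipo-PBS library. Of 24 proteases and inhibitors 5 were higher in the Dio2-led cells and 2 lower. Of 16 TGF-β target genes 1 was higher and 4 were lower, of 17 Wnt components 2 were higher and 3 lower, and of 37 proteoglycans and matrix glycoproteins 4 were higher and 7 lower. The retinoic acid and thyroid hormone groups had no gene past the limit in both libraries. Markers of other lineages moved with the ranges too. Of 4 epithelial markers 3 were higher in the Dio2-led cells, where the list summed to 1472 and 1096 CPM in Lipo-Clo and Lipo-PBS against 829 and 208 CPM in the Moxd1-led cells. Neutrophil markers summed to 6304 and 4287 CPM in the Dio2-led against 1516 and 109 CPM in the Moxd1-led cells, and 93.8% and 97.8% of them lay in 10 Dio2-led cells. Odontoblast markers summed to 716 and 263 CPM against 149 and 76.5 CPM, with 90.3% and 61.3% in 10 Dio2-led cells. Glial markers summed to 109 and 591 CPM against 42.3 and 142 CPM. Erythroid markers went the other way, at 2354 and 31834 CPM in the Dio2-led against 16179 and 45055 CPM in the Moxd1-led cells. The part of these markers in the differences between the ranges was not tested.

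The members of the Lipo-Clo and Lipo-PBS libraries were compared next. Of 5384 genes seen in 10% or more of either library's members, 295 were at least 1.5-fold higher in Lipo-Clo (5.48%) and 838 lower (15.6%), counted by size alone. Of the genes past the limit 26.0% were thus higher, and with TMM factors in place of total UMIs the counts were 436 higher and 648 lower, or 40.2% higher. The median log2 ratio over these genes was −0.05 with total UMIs. Because Dio2-led cells were 29.1% of the Lipo-Clo and 65.5% of the Lipo-PBS members, this contrast mixes a difference in make-up with differences within the ranges. Within the Dio2-led cells alone, 221 of 3195 genes with at least 50 UMIs were higher (6.92%) and 414 lower (13%). Of 287 genes higher in Lipo-Clo members with at least 50 UMIs (mitochondrial, haemoglobin and ribosomal protein genes left out), 159 were also past the limit in the Dio2-led cells and 49 in the other Col1a1-rich cells. Of 815 lower genes the numbers were 494 and 246. These overlaps were not limited to genes with at least 50 UMIs in the Dio2-led cells, as the 221 and 414 were. The Dio2-led cells are also a part of the members, so overlap with them is partly built in. Of all 5548 genes measured in the other Col1a1-rich cells, the genes of the rule left out, 131 were higher and 415 lower. That count had no limit of 50 UMIs.

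For several genes of the members the difference between libraries was small within the Dio2-led cells. Il1rl1 had a log2 ratio of −1.08 over all members but −0.14 (interval −0.35 to 0.07) in the Dio2-led cells, and Stc1 had −1.09 and 0.09. Tnfrsf21 had −0.54 and −0.05. In the Moxd1-led cells Il1rl1 had 0.88 (interval −0.56 to 2.80) and Tnfrsf21 0.31 (interval −0.51 to 1.26). Stc1 had 0 UMIs there in Lipo-Clo and 2 in Lipo-PBS. Bmp3 was higher in Lipo-Clo, with 1.40 (interval 1.21 to 1.58) over all members. It had 1.03 (interval 0.69 to 1.37) in the Dio2-led cells and 0.01 (interval −0.30 to 0.33) in the Moxd1-led cells. Once each of the 3 ranges was given the same weight in both libraries, the value for Bmp3 was 0.42. Bmp3 was also higher in Lipo-Clo in the other Col1a1-rich cells, at 1.43. Fbln7 was at 390 CPM in the Lipo-Clo and 218 CPM in the Lipo-PBS Dio2-led cells, a log2 ratio of 0.84 (interval 0.49 to 1.19), and stood at 1.03 over all members. Apcdd1 had 0.66 (interval 0.42 to 0.90) in the Dio2-led cells and 0.44 over all members.

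The genes named as highest in Lipo-Clo members were chosen to have the same sign in the Dio2-led and the Moxd1-led cells, and Wnt10a had no UMI in the Moxd1-led Lipo-PBS cells. Besides Bmp3 they were low in level. Insl6, of the insulin and relaxin family, had 83 UMIs in Lipo-Clo and 10 in Lipo-PBS members (log2 ratio 2.76, interval 1.81 to 3.88). Ephb1 had 169 and 29 (2.25, interval 1.68 to 2.88). The basement membrane protein Nid2 (2.03), the Wnt ligand Wnt10a (1.82), Smim1 (1.64), the stem cell factor receptor Kit (1.58), Nudt14 (1.56), 9930105H17Rik (1.55), the apelin receptor Aplnr (1.46) and the creatine synthesis enzyme Gatm (1.38) followed. In the Dio2-led cells the intervals of Insl6, Nid2, Wnt10a, Kit, 9930105H17Rik, Aplnr and Gatm included 0. Insl6, Ephb1, 9930105H17Rik and Kit were also past the limit in the other Col1a1-rich cells, at 2.28, 2.75, 1.90 and 0.76, while Aplnr and Gatm stood there at −0.20 and −0.34. With each range at the same weight in both libraries, Ephb1 stood at 0.86 and Kit at 0.74, and the others named here besides Bmp3 at 0.99 to 2.42. Within the Moxd1-led cells Ephb1 had 0.61 (interval −0.24 to 1.60). There the intervals of Kit (−0.56 to 1.75), Nudt14 (−0.86 to 3.13) and 9930105H17Rik (−0.39 to 7.53) also included 0.

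Among the 12 lowest genes, chosen in the same way, were Sfrp2, Mgp and Slpi. Sfrp2, a secreted Wnt modulator, had 124 UMIs in Lipo-Clo and 605 in Lipo-PBS members, a log2 ratio of −2.58 (interval −2.87 to −2.29). It was seen in 18.2% and 50.2% of the members, and its ratio in the Dio2-led cells was −2.26 (interval −2.74 to −1.82) and in the other Col1a1-rich cells −1.03. Mgp had 75 and 355 UMIs (−2.53, interval −2.91 to −2.17), and in the Dio2-led cells it was at 15.1 against 215 CPM. In the Moxd1-led cells the intervals of both included 0, at −0.95 (−2.10 to 0.38) for Sfrp2 and −0.81 (−1.78 to 0.29) for Mgp. The sialomucin Cd34 (−2.86), Hpse2 (−2.43), the leucine-rich proteoglycan Prelp (−2.33), Col14a1 (−2.16), Bach2 (−2.11), the transcription factor Bnc2 (−2.07) and Ecrg4 (−2.07) were in the same group. In the Dio2-led cells the intervals of Col14a1 (−2.13 to 0.21), Hpse2 (−2.42 to 0.04), Prelp (−3.25 to 1.21) and Bach2 (−2.75 to 0.13) included 0. All 12 were lower in the other Col1a1-rich cells too, from −1.89 to −0.36.

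Some of the lower genes had much of their count in a few cells. Slpi, a secreted protease inhibitor, had 84 UMIs in Lipo-Clo and 541 in Lipo-PBS members (−2.98), and 3 Lipo-PBS members held 73.6% of them. Elastin (Eln) had 182 and 610 UMIs (−2.03), of which a single Lipo-PBS member held 248, and 3 Lipo-Clo members held 63.2% of those in Lipo-Clo. Pmp22 had 73 and 289 UMIs (−2.27), with 50.5% in 3 Lipo-PBS members. In the Moxd1-led cells Eln had −0.15 (interval −1.23 to 1.13). With the 3 richest members of each library left out of the gene's sum, the log2 ratios were −2.16 for Slpi, −2.48 for Eln and −1.52 for Pmp22.

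**Figure D5:**
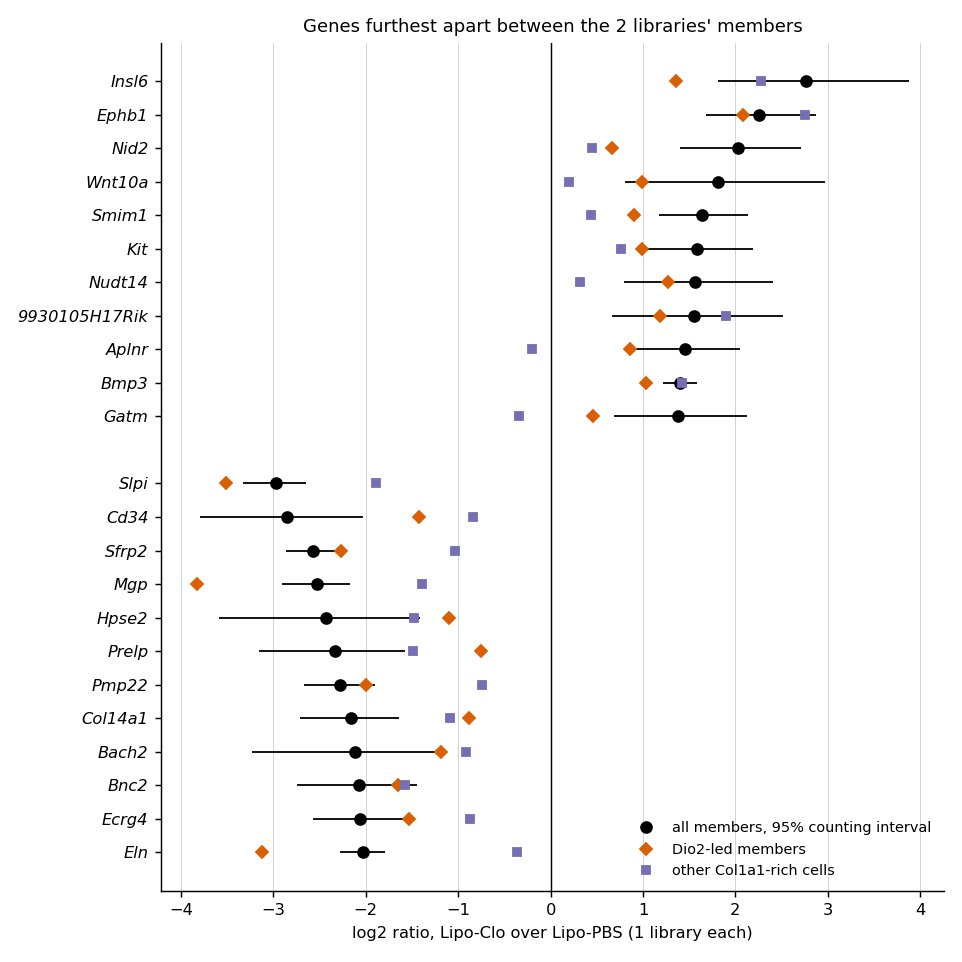
The log2 ratio of Lipo-Clo over Lipo-PBS for the genes furthest apart in each direction, in all members (black, with 95% counting intervals), in Dio2-led members (orange) and in other Col1a1-rich cells (purple), from 1 library of each kind. The orange points lie on the same side of 0 as the black ones in every gene drawn, by the rule that named them, while the purple points of Aplnr and Gatm lie on the other side.

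Gene groups were read against the 5.48% higher and 15.6% lower of all genes. With the genes of the rule left out, 294 of 5374 genes were higher and 833 lower. With each range at the same weight in both libraries, 356 of these 5374 genes were higher and 816 lower. Of 6 adventitial fibroblast markers measured, 5 were lower in Lipo-Clo members and none higher (median log2 ratio −1.98), and of 3 in the Dio2-led cells 1 was higher and 1 lower. In the other Col1a1-rich cells 4 of 9 were lower with a median of −0.57. Of all 5548 genes measured there, 131 were higher and 415 lower. This list stood at 432 CPM in the Lipo-Clo and 1426 CPM in the Lipo-PBS members, and its part in the other differences was not tested. Of its 1492 UMIs in Lipo-PBS members, 716 lay in the Dio2-led and 51 in the Moxd1-led cells, the rest in those led by neither. In Lipo-PBS the members led by neither held Eln at 1557, Mgp at 681 and Sfrp2 at 564 CPM. The Dio2-led cells of this library held them at 210, 215 and 653 CPM, and its other Col1a1-rich cells at 864, 838 and 376 CPM. Of 39 proteoglycans and matrix glycoproteins 6 were higher and 13 lower. Omd, a leucine-rich proteoglycan of mineralized tissue, was at 1056 and 643 CPM (0.72, interval 0.58 to 0.85), versican (Vcan) at 297 and 157 CPM (0.92, interval 0.66 to 1.20) and Igfbp5 at 4097 and 2542 CPM (0.69, interval 0.62 to 0.76). With the ranges at the same weight 3 of the 39 were higher and 10 lower, and Vcan stood at 0.85, Omd at 0.25 and Igfbp5 at 0.21. Igfbp5 was at 4941 and 4982 CPM in the Moxd1-led and 2910 and 2239 CPM in the Dio2-led cells of Lipo-Clo and Lipo-PBS. Decorin (Dcn) was at 463 and 1008 CPM (−1.12, interval −1.27 to −0.98), and fibromodulin (Fmod) at 18.0 and 114 CPM (−2.66, interval −3.37 to −2.01).

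Of 8 fibrillar collagens besides Col1a1 none passed the limit, and the median was 0.17. Col1a2 had a log2 ratio of 0.18 (interval 0.15 to 0.20) and Col3a1 0.14 (interval 0.11 to 0.17). Of 13 other collagens 2 were higher and 4 lower, with Col12a1 at −0.85 (interval −0.91 to −0.80) and, in the Dio2-led cells, −0.52 (interval −0.59 to −0.44). Postn was higher in Lipo-Clo members by 0.43 (interval 0.38 to 0.48) and in the Dio2-led cells by 0.78 (interval 0.70 to 0.85), and stood at −0.42 in the other Col1a1-rich cells. It stood at −1.30 (interval −1.35 to −1.24) in the Mmp13-positive and −0.49 (interval −0.54 to −0.44) in the bone-side cells. Lox, which cross-links collagen and elastin, had 0.52 (interval 0.37 to 0.67) in the members, 0.58 (interval 0.35 to 0.81) in the Dio2-led cells and −0.15 in the other cells. The difference between members and other cells was not tested.

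Over all members, the pathway genes were mostly within the limit. Most Wnt components were past it with the ranges at the same weight and in the Dio2-led cells. Of 19 Wnt components 3 were higher and 5 lower. With the ranges at the same weight 2 were higher and 10 lower, beside 356 and 816 of all 5374 genes. In the Dio2-led cells none of 14 was higher and 8 were lower, beside 219 and 411 of all 3185 genes. Their median there was −0.67 beside 0.01 over all genes. Those lower there included Sfrp2, Wif1 (−0.92, interval −1.34 to −0.52), the receptor Ror1 (−1.83), the co-receptor Lrp6 (−0.92) and Rspo1 (−0.93). Of 21 genes of TGF-β signalling 1 was higher and 4 were lower (1 and 2 at the same weight), the receptor Tgfbr1 at 65.7 and 134 CPM among them (−1.03, interval −1.43 to −0.63). In the Dio2-led cells none of 16 was higher and 5 were lower. Of 16 TGF-β target genes none was higher and 4 were lower (none and 5 at the same weight). In the Dio2-led cells 1 of 15 targets was higher and 4 were lower. Of 25 dental and skeletal transcription factors Msx1 was higher (0.77, interval 0.46 to 1.10) and 6 were lower. At the same weight none was higher, with Msx1 at 0.39, and 8 were lower, and in the Dio2-led cells Msx1 stood at 0.11 (interval −0.50 to 0.70). Prrx1 was at 223 and 436 CPM (−0.97, interval −1.19 to −0.75), Nfib at 32.8 and 122 CPM (−1.90, interval −2.44 to −1.38) and Nfia at 76.6 and 159 CPM (−1.05, interval −1.42 to −0.68), and each was past the limit in the same direction in the other Col1a1-rich cells as well. Of 16 growth factor genes Igfbp5 was higher and 4 were lower (none and 5 at the same weight), with Igf1r at −1.15 (interval −1.49 to −0.82) and Igfbp3 at −1.64 (interval −1.93 to −1.35).

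Among eruption signals Pthlh was lower in Lipo-Clo members by the limit, at 137 against 218 CPM (−0.67, interval −0.96 to −0.38), and at −0.54 with the ranges at the same weight. It stood at −0.57 in the Dio2-led cells (interval −1.03 to −0.13) and at 0.33 in the other Col1a1-rich cells. Thrb was at 59.4 and 120 CPM (−1.02, interval −1.45 to −0.60), with −0.52 (interval −1.22 to 0.14) in the Dio2-led and −1.52 (interval −2.48 to −0.47) in the Moxd1-led cells, and in the other Col1a1-rich cells its ratio was −0.94. Klf9 had −0.44 (interval −0.69 to −0.19) over all members with −0.15 (interval −0.54 to 0.23) in the Dio2-led cells, −0.76 (interval −1.38 to −0.10) in the Moxd1-led cells and −0.36 with the ranges at the same weight. Of 7 retinoic acid genes none passed the limit. Of 7 early bone and cementum genes 1 was higher, Omd, and none was lower. At the same weight none was higher and 1 was lower. Runx2 stood at −0.24 (interval −0.41 to −0.08) over all members and at −0.66 at the same weight. In the Moxd1-led cells it had −1.08 (interval −1.39 to −0.76). Alpl stood at 0.57 (interval 0.22 to 0.93) over all members.

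Genes that follow handling and energy use were examined because the libraries differed in mitochondrial UMIs. Of 77 nuclear-coded oxidative phosphorylation genes 2 were higher in Lipo-Clo members and none lower, but their median was 0.30, the same as in the Dio2-led cells and close to the 0.29 of the other Col1a1-rich cells. Of 23 genes of dissociation stress 3 were higher and none was lower, with a median of 0.01. The heat shock genes Hspa1a, Hspa1b and Dnajb1 were the higher ones. Haemoglobin genes were lower in Lipo-Clo, with all 4 measured erythroid markers past the limit in the members (median −0.92) and in the other Col1a1-rich cells (−1.39). Proliferation was little seen, with 21 and 10 Mki67 UMIs in all Lipo-Clo and Lipo-PBS members.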

How the data were processed

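Deposited UMI counts per gene and cell, not normalized, were used for 34285 genes. The file headers name Cell Ranger 8.0.0, and the submitters' processing notes Cell Ranger 3.1.0 and Seurat 3.1.1 with build GRCm39. The paper names Omicsmart for its bioinformatics and reports subclustering, enrichment analyses and CellChat, which were not repeated here. The members and gene lists were chosen with earlier results of these data known. Summed UMIs per library were scaled to CPM (1000000 UMIs), and log2 ratios were given exact Poisson intervals (scipy 1.17.1), with no p-values. Genes past 1.5-fold (0.58 on the log2 scale) were counted by size among genes seen in 10% or more of the cells of a set. Named genes were the 15 highest and 10 lowest against other Col1a1-rich cells by the smaller difference of the libraries (25% of cells), the 10 on each side between ranges, and the 12 in each direction between libraries (at least 50 UMIs, same sign in Dio2-led and Moxd1-led cells, with mitochondrial, haemoglobin and ribosomal protein genes left out). Doublets were kept, and were left out as an alternative by Scrublet scores (scanpy 1.11.5), whose threshold called 0 and 1 cells, so the highest-scoring 632 and 633 were removed, 21 members in each library. Other scalings used edgeR 4.0.16 and DESeq2 1.42.0. The ratio script was tested on simulated counts. A few genes that met these rules are not reported here.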

Additional observations from a re-analysis of the deposited data

Results flagged for a closer look

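Some genes moved in opposite directions in 2 sets of cells of the same 2 libraries. In each case the difference was not tested, because each condition has 1 library. Tnn, tenascin W, a matrix protein of ligament and bone, had a log2 ratio of Lipo-Clo over Lipo-PBS of 0.60 in Dio2-led members and −1.52 in Moxd1-led members. Lum, lumican, had 0.18 and −0.16 in the same order. Thbs1, thrombospondin 1, stood at 0.62 over all members and at −0.68 in the other Col1a1-rich cells.

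The neutrophil granule genes Camp and Ngp were the other cases. Camp had −2.60 in Dio2-led and 1.78 in Moxd1-led members, −2.01 over all members and 0.99 in the other Col1a1-rich cells. The 23 Moxd1-led Lipo-PBS members held 10 neutrophil marker UMIs in all, so the ratio in that range is very uncertain. Ngp had −2.60 over all members and 1.47 in the other Col1a1-rich cells. Of the neutrophil marker UMIs of members, 10 cells held 81.7% in Lipo-Clo and 96.8% in Lipo-PBS.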

How the results depend on the processing

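No paired analysis was possible because there is a single library for each treatment. The share of members, with a log2 ratio of 0.13, was 0.73 with Col1a1 at 4% of UMIs or more, −0.22 with Moxd1 left out of the sum and 0.49 with Dio2 left out (the latter 2, and all limits on haemoglobin or 10 other-lineage UMIs, were chosen after seeing the data). It moved by less than its counting interval under the 9 others tried, and the Dio2-led share under all 15. The 295 higher genes became 507 with 10 UMIs required over the 5 genes, 1002 with a lower and 56 with a higher fold limit, 804 with all genes of at least 20 UMIs. In Dio2-led members only (also chosen after seeing the data) they became 548 of the 5171 genes seen in 10% or more of those cells, against 221 of the 3195 with at least 50 UMIs there. The 838 lower genes became 1623, 220 and 1615 under the fold limits and the gene minimum. TMM factors gave 436 and 648, so that 40.2% of the genes past the limit were higher, against 26.0% with total UMIs. Of the named genes' values 43 left their counting interval and 245 did not, and their sign was in part fixed by the rule that chose them. Of the list medians, that of all genes included, 237 stayed within 0.1 of the main value, 57 moved and 6 of those at least 0.1 in size changed sign: eruption signals 0.011 with members thinned to 2000 UMIs, TGF-β targets −0.34 in the same mixture and −0.0034 in Dio2-led members, matrix glycoproteins 0.0012 and dental follicle markers 0.40 with 10 UMIs required, and periodontal ligament markers 0.0058 in Dio2-led members. These use the genes measured in all members, and a further 23 sign changes were of medians under 0.1 in size. Over the fewer genes with at least 50 UMIs in Dio2-led members, the medians there were 0.10 for TGF-β targets, 0.24 for other collagens (−0.24 in all members), 0.014 for matrix glycoproteins (−0.30) and 0.38 for BMP antagonists (−0.04). Leaving out members with 3 or more UMIs of other lineages could not be used, since 2 and 5 members were left.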
